A study of Mus musculus with 8 samples.

Results

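The innate sensors and the NF-κB pathway of the mouse distal colon were followed as a set of 50 genes: Toll-like receptors (TLRs), NOD receptors and inflammasome sensors, the adaptors and kinases that relay their signals, the subunits of NF-κB and the proteins that restrain it. A gene was taken by its symbol, and all 50 were found among the 52143 genes measured. Tissue was taken at baseline from 4 control and 4 Siglec-XII samples. Mice were 8 weeks old at the first of 5 daily tamoxifen injections (100 μl of 10 mg/ml, i.p.) and were killed 7 days after the last. Controls carried the Villin1-Cre-ERT driver alone, and Siglec-XII mice carried the driver plus 1 copy of human SIGLEC12, knocked in at ROSA26 behind a CAG promoter and an EGFP stop cassette flanked by loxP sites. The Villin1 promoter drives Cre in the intestinal epithelium, so the driver and tamoxifen were shared by all 8 samples and SIGLEC12 was the intended difference. No row of the deposited values carries the name SIGLEC12, EGFP or Cre, and the transgene could therefore not be checked.

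TLRs at the cell surface bind bacterial lipoproteins, lipopolysaccharide and flagellin, and most TLRs in endosomes bind nucleic acids. Through MYD88 or TRIF they activate IRAK kinases and TRAF6, and then the IKK complex, which marks IκB proteins for destruction and frees NF-κB dimers to enter the nucleus. Inflammasome sensors instead assemble with the adaptor ASC to activate caspase-1, which matures IL-1β and IL-18 and cuts gasdermin D into a pore. In the gut these receptors face a dense microbiota, and both epithelial cells and cells of the lamina propria express them.

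Values were log2(TPM + 1), in which TPM is a share of the library corrected for transcript length, so that levels can be compared between genes. TPM keeps no record of read number, and the depth behind each value is therefore unknown. Differences are given as Siglec-XII minus control on the log2(TPM + 1) scale, which understates the change of low genes, and were tested with limma over the 13164 genes that reached 1 TPM in 4 or more samples. Of the 50 genes, 40 were tested. Between 12748 and 13715 genes per sample reached a TPM of 1, and correlations between samples lay from 0.945 to 0.987. The epithelial markers Epcam, Cdh1, Vil1, Krt8, Krt18, Krt19, Krt20 and Cdx2 summed to between 8896 and 12735 TPM in controls and between 8519 and 12146 TPM in Siglec-XII samples, so the defining markers of the labelled tissue were present. Siglec-XII samples 3 and 4 stood apart from the rest: their median gene lay at -0.23 and -0.37 log2 units from the mean of the 8 samples, whereas the other 6 lay between -0.02 and 0.18. The median difference over all tested genes was -0.15, and 78.1% of them had a difference below 0.

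Several of these genes belong to the negative feedback of the pathway, and their promoters carry the κB site to which NF-κB binds. The 250 bases before each RefSeq start (GRCm38.p6) were searched on both strands for the κB consensus, with overlapping matches merged into 1 stretch. A match was present in 10 of the 41 genes with a promoter entry (24.4%), compared with 1204 of 27025 genes overall (4.46%). The 10 were Tlr2, Tlr3, Nlrp3, Naip5, Casp4, Nfkb2, Rel, Nfkbia, Nfkbie and Tnfaip3. Relb, Ikbkb, Ly96, Nfkbiz, Tlr7, Nfkb1, Ripk2, Gsdmd and Tlr4 had no entry. A match describes the letters in the window and says nothing of binding in these samples.

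Nfkbia and Nfkbie, which encode IκBα and IκBε, are shown in full because both are inhibitors made in response to NF-κB and both lie outside the annotated transcripts. The sequences run 5′ to 3′ on the strand of the gene, with the κB stretch in capitals. The Nfkbia window is chr12:55492648-55492897 on the minus strand, with the stretch from -29 to -20 relative to the start. The Nfkbie window is chr17:45555450-45555699 on the plus strand, with the stretch from -106 to -97.
Nfkbia: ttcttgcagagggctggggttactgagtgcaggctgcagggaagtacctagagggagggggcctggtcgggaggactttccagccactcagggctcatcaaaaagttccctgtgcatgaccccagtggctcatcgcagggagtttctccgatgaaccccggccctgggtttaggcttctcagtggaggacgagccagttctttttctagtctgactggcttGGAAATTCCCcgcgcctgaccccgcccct
Nfkbie: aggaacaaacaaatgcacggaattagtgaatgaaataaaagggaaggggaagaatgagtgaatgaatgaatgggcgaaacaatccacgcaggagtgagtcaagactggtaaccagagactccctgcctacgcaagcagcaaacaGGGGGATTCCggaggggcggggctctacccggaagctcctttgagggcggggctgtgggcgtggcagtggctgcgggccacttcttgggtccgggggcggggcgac

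For Rel and Nfkb2, which encode NF-κB subunits, for the feedback enzyme gene Tnfaip3 and for the receptor genes Tlr2 and Tlr3, 1 stretch is shown with its flanks, in windows of at most 30 bases. Tnfaip3 has a second stretch from -12 to -3 and Nfkb2 a second from -11 to -2 in the same promoter, with further matches at other Nfkb2 starts, and these are not shown. The Rel window (chr11:23771041-23771070, minus strand) lies outside the gene in GENCODE M21, those of Nfkb2 (chr19:46304689-46304718, plus strand), Tlr2 (chr3:83841761-83841790, minus strand) and Tlr3 (chr8:45410572-45410601, minus strand) overlap an untranslated exon of another transcript start, and that of Tnfaip3 (chr10:19015516-19015545, minus strand) lies in an intron.
Rel: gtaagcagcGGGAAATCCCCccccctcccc
Nfkb2: gatcgtcacGGGAATTCCCCccctcggggg
Tnfaip3: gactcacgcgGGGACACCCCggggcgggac
Tlr2: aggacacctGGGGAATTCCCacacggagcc
Tlr3: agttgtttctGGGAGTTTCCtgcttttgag

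The first question was which sensors the control colon expressed. Inflammasome genes stood highest. Pycard, which encodes the adaptor ASC, had 316 ± 20.2 TPM (SD, n = 4), above 96.8% of the tested genes. Gsdmd, the gasdermin D gene, had 111 ± 13.7 TPM, and Casp1 had 108 ± 7.95 TPM. Among the inflammasome sensors, Nlrp6, known for its role in the gut epithelium, had 56.2 ± 15.4 TPM, and the DNA sensor Aim2 had 50.7 ± 11.2 TPM. Naip1 (48.7 ± 12.3 TPM) and Naip2 (28.8 ± 7.54 TPM), whose products bind proteins of bacterial type III secretion systems, came next, and Naip1 lay within 1 SD of Nlrp6 and of Aim2.

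Most TLR genes were lower than these. Nlrc4 (9.07 ± 2.05 TPM), Naip5 (7.35 ± 1.46 TPM) and Nlrp1b (5.74 ± 1.05 TPM), the lower of the tested inflammasome sensors, lay in the same range as the TLR genes. Tlr1, whose product pairs with TLR2 on lipoproteins, had 37.4 ± 7.81 TPM and Ly96, the lipopolysaccharide co-receptor MD-2, had 14.2 ± 2.02 TPM. Tlr3, the receptor for double-stranded RNA, had 9.76 ± 2.99 TPM, Tlr4 8.16 ± 1.66 TPM, Tlr2 4.99 ± 0.891 TPM and Tlr5 2.32 ± 0.524 TPM. The remaining endosomal receptor genes were close to 0: across all 8 samples Tlr7, Tlr8, Tlr9, Tlr11 and Tlr13 did not exceed 0.0621, 0.135, 0.0743, 0.0116 and 0.209 TPM, respectively. Tlr6, Tlr12, Irak3, Nod2 and Nlrp3 also had a mean under 1 TPM in both groups and, with those 5, make up the 10 genes that were not tested.

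**Figure D1:**
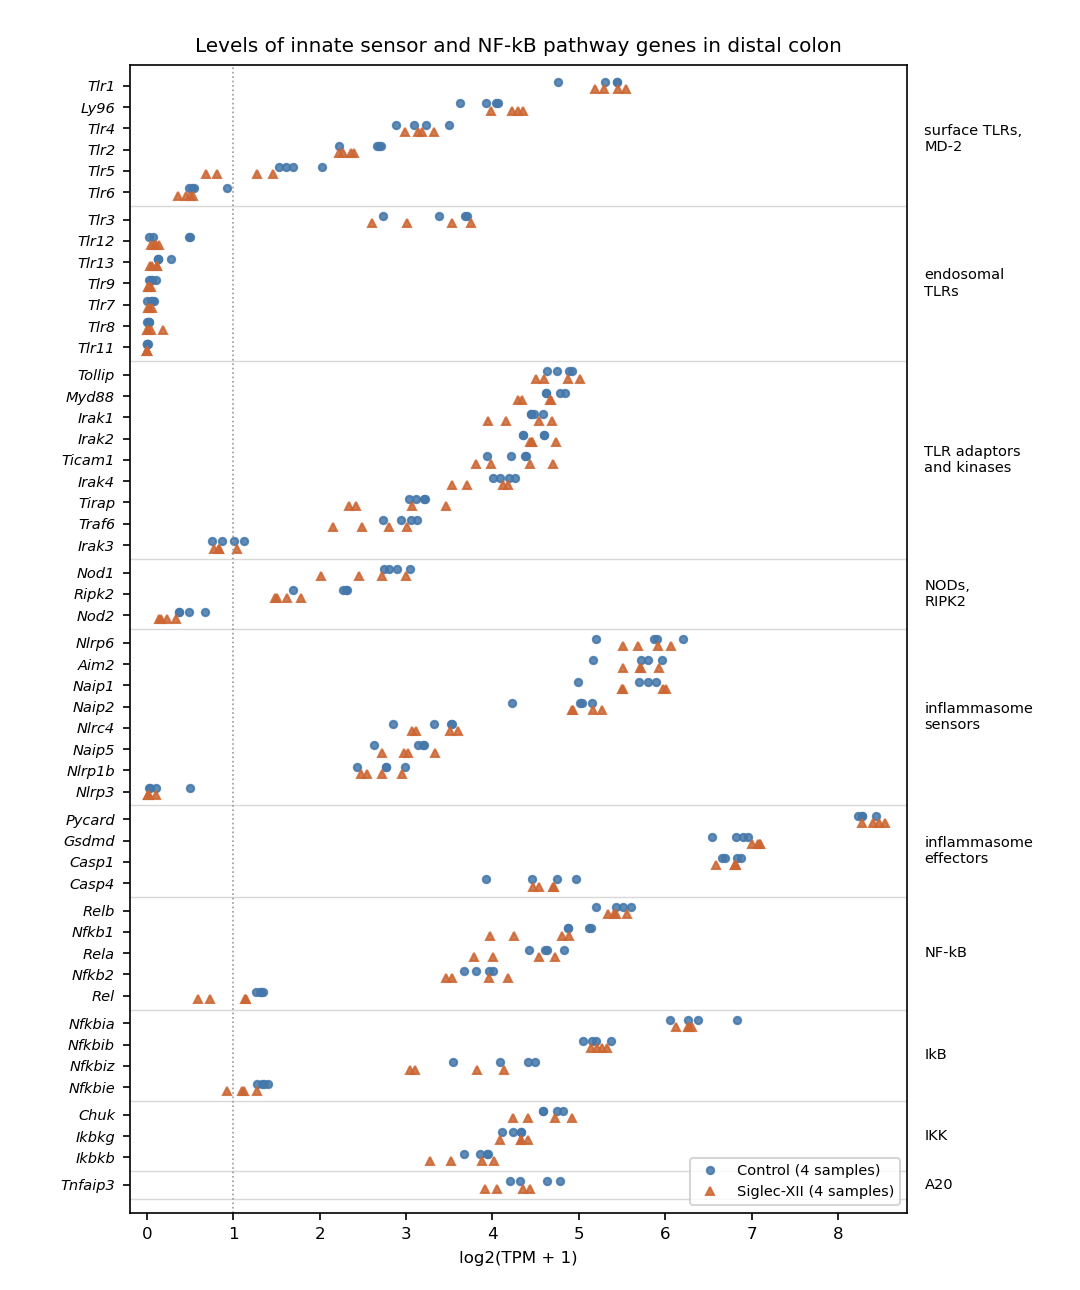
Level of each of the 50 genes in each sample, as log2(TPM + 1) on the horizontal axis, with genes grouped by role and sorted by level within the group. Circles are the 4 control samples, triangles the 4 Siglec-XII samples and the dotted line a value of 1, which is 1 TPM; Pycard, Gsdmd and Casp1 lie farthest to the right, and 6 of the 7 endosomal TLR genes lie near 0.

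The second question was whether the set differed between Siglec-XII and control colon. None of the 40 tested genes passed an adjusted p of 0.05 in limma (smallest adjusted p = 0.515), against 0.038% of all tested genes. Without adjustment, 5 genes passed P of 0.05 (12.5%), against 8.87% of all tested genes. Gsdmd was the single one of the 5 with the higher level in Siglec-XII samples, and Tlr5, Ripk2, Nfkb1 and Rel had the lower level. For all tested genes, 1.19% passed in the higher and 7.67% in the lower direction. Of the 40 differences, 13 were positive and 27 negative, whereas 21.9% of all tested genes had a positive difference. Centring each sample on its median made 26 positive and 14 negative, and quantile normalization made 25 positive and 15 negative. The median of all tested genes also rose, from -0.15 to 0.06 with centring and to 0.02 with quantile normalization. With centring, 7 genes passed unadjusted P of 0.05 in the higher direction (8.64% of all tested genes) and 2 in the lower (2.16%). The median difference was -0.07, ranging from -0.66 in Tlr5 to 0.30 in Ly96. For 38 of the 40 genes the 95% interval lay within 1 log2 unit on either side of 0, and the 2 exceptions were Tlr5 and Nfkbiz.

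The count at unadjusted P rested on single samples. The share of all tested genes moved with it. It was 3 without control sample 2 (6.46% of all tested genes), 2 without control sample 4 (5.04%), 10 without Siglec-XII sample 1 (18.0%), 3 without Siglec-XII sample 3 (3.67%) and 3 without Siglec-XII sample 4 (4.28%). None of the 40 genes passed without Siglec-XII samples 3 and 4 together, where 2.75% of all tested genes did, or without control samples 2 and 4 together, where 3.01% did. In 23 of the 40 genes (57.5%) the lowest of the 8 values was in Siglec-XII sample 3 or 4, against 63.3% of all tested genes. In 14 it was in control sample 1, for which the share of all tested genes was not counted. The highest value was in Siglec-XII sample 3 or 4 in 3 genes, against 9.57% of all tested genes. In 4 genes, Tlr5, Gsdmd, Rel and Nfkbie, the groups did not overlap, which held for 5.11% of all tested genes (1.05% with the higher and 4.06% with the lower level in Siglec-XII samples).

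**Figure D2:**
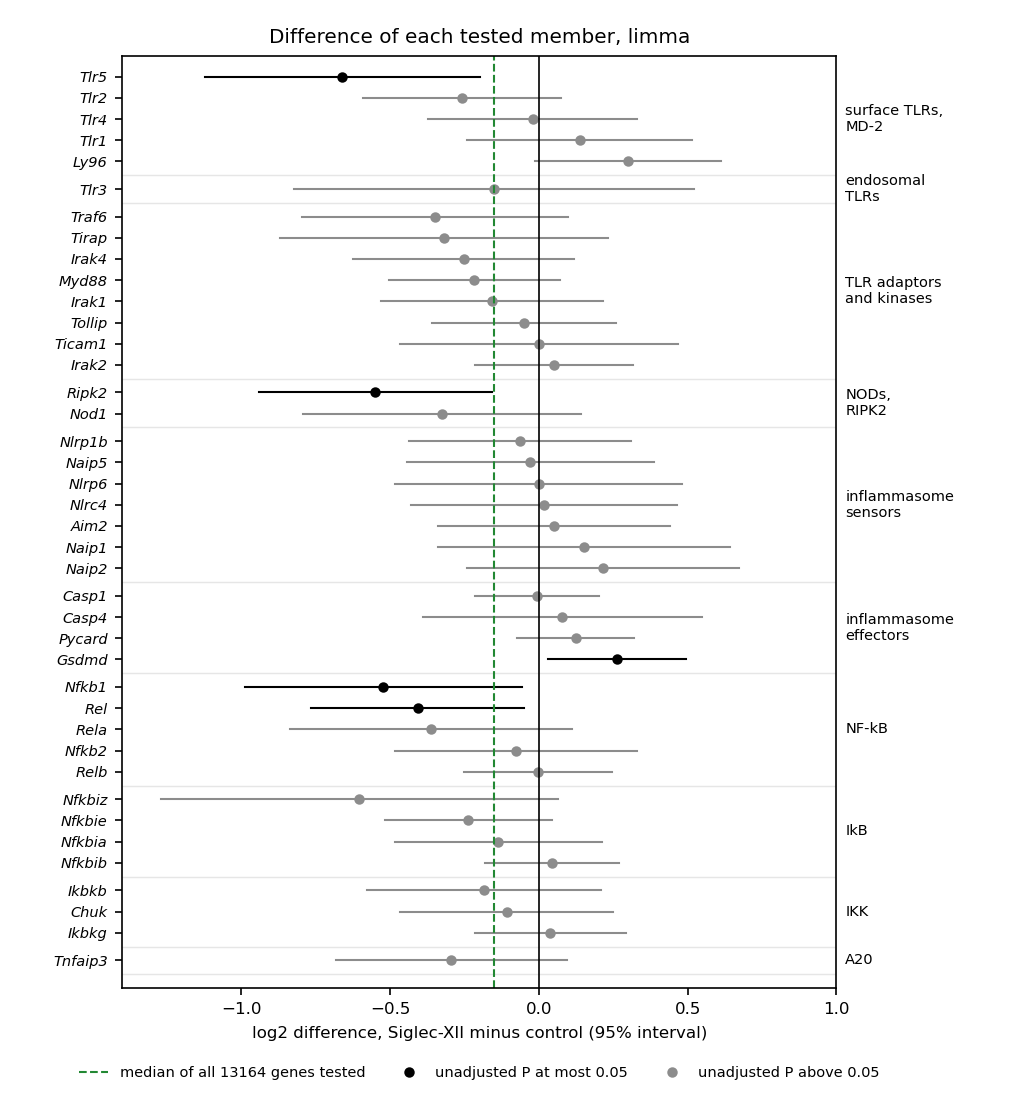
Log2 difference (Siglec-XII minus control) of the 40 tested genes with its 95% interval from limma, by role. The green dashed line is the median of all 13164 tested genes (-0.15); black marks the 5 genes at unadjusted P of 0.05 or less, of which Gsdmd lies to the right of 0.

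**Figure D3:**
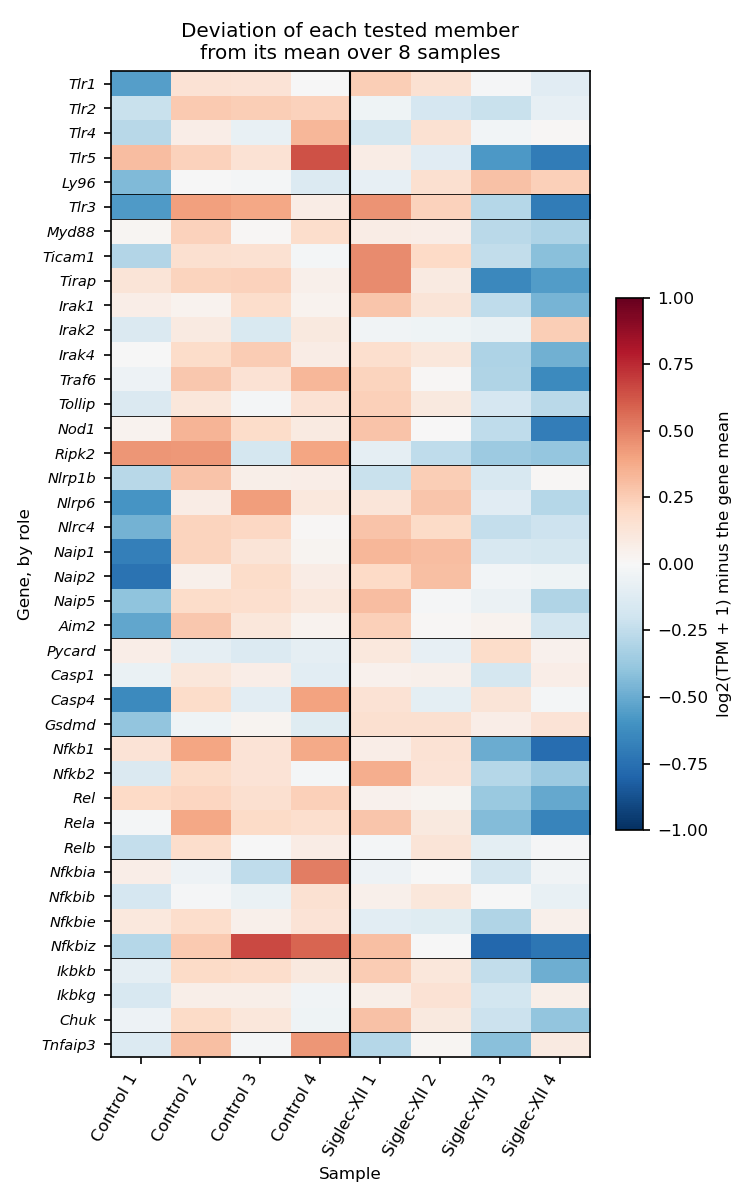
Deviation of each tested gene in each sample from its mean over the 8 samples, in log2(TPM + 1), on a colour scale from blue (lower) to red (higher). Rows are genes by role and columns are samples. The inflammasome sensor rows are bluest in control sample 1. The rows of the TLR adaptors and kinases other than Irak2, and of Nfkb1, Rel and Rela, are bluest in Siglec-XII sample 3 or 4.

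Among the surface receptors, Tlr5, the receptor for flagellin, on chromosome 1 from 182954788 to 182976044, showed the largest difference. Its TPM was 2.23, 2.06, 1.89 and 3.07 in control samples 1 to 4 and 1.75, 1.41, 0.753 and 0.608 in Siglec-XII samples 1 to 4. Every Siglec-XII sample lay below every control sample, and Siglec-XII samples 3 and 4 were the lowest. The log2 difference was -0.66 (95% interval -1.12 to -0.20, unadjusted P = 0.0103, adjusted p = 0.515 by limma). It stayed below 0 in the 16 alternatives in which it was tested, from -1.06 to -0.35 (the filter at TPM 5 removed it), and it no longer passed at unadjusted P without Siglec-XII samples 3 and 4 or without control samples 2 and 4. None of its 31-base windows occurs in another annotated gene.

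In the values as deposited, the other surface receptors were closer to 0. Ly96 had 11.3, 15.7, 15.5 and 14.2 TPM in controls and 14.8, 17.7, 19.5 and 18.7 TPM in Siglec-XII samples, which overlapped, with a log2 difference of 0.30 (-0.01 to 0.61). It was 0.51 after median centring and 0.49 after quantile normalization, against -0.45 and -0.49 for Tlr5, and Ly96 passed at unadjusted P in 5 of 17 alternatives. Tlr1 had 26.0, 42.6, 42.4 and 38.5 TPM in controls and 45.9, 42.9, 38.3 and 35.5 TPM in Siglec-XII samples. Control sample 1 was the lowest for Tlr1, whose log2 difference was 0.14 with all samples and -0.02 without it. After median centring the Tlr1 difference was 0.35, and it passed at unadjusted P. Of the 31-base windows of Tlr1, 18.3% also occur in Tlr6. Tlr4, the lipopolysaccharide receptor, differed by -0.02 and Tlr2 by -0.26. Tlr2 passed with the lower level at unadjusted P without control sample 1 (8.45% of all tested genes passed) and with array weights (14.1%). The endosomal Tlr3 had 5.67, 12.1, 11.9 and 9.38 TPM in controls and 12.5, 10.6, 7.09 and 5.07 TPM in Siglec-XII samples, a spread within each group that exceeded the log2 difference of -0.15 (-0.82 to 0.52).

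Of the TLR adaptors and kinases, none of the 8 tested passed at unadjusted P. A difference below 0 was found in 6 of 8 (median -0.19), against 78.1% of all tested genes. The split was 4 and 4 under both median centring and quantile normalization, and 5 of 8 were above 0 without Siglec-XII samples 3 and 4. Tollip, an inhibitor of IRAK1, had 23.8, 28.6, 25.9 and 29.3 TPM in controls and 31.3, 28.3, 23.3 and 21.6 TPM in Siglec-XII samples. Myd88, the adaptor of most TLRs, had 23.6, 27.5, 23.5 and 26.5 TPM in controls and 24.6, 24.5, 19.2 and 18.6 TPM in Siglec-XII samples. Both sets of values overlapped, with log2 differences of -0.05 and -0.22. After median centring these were 0.16 and -0.005, and Tollip passed at unadjusted P. The ubiquitin ligase gene Traf6 had the largest difference of the group, -0.35 (-0.80 to 0.10), from 5.67, 7.33, 6.66 and 7.70 TPM in controls and 7.08, 5.98, 4.61 and 3.45 TPM in Siglec-XII samples. It was -0.20 without Siglec-XII sample 4 and -0.48 without Siglec-XII sample 1, where Traf6 and Tirap passed at unadjusted P. In 7 of the 8 genes, against 63.3% of all tested genes, the lowest value was in Siglec-XII sample 3 or 4, with Irak2 as the exception. The differences of the other 5 (Ticam1, Tirap, Irak1, Irak2 and Irak4) lay between -0.32 in Tirap and 0.05 in Irak2.

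NOD1 and NOD2 bind fragments of bacterial peptidoglycan and signal through the kinase RIPK2. Ripk2, on chromosome 4 from 16122733 to 16163647, had 3.97, 3.96, 2.24 and 3.83 TPM in control samples 1 to 4 and 2.44, 2.08, 1.84 and 1.80 TPM in Siglec-XII samples 1 to 4. Control sample 3 fell among the Siglec-XII values, and the other 3 controls lay above them all. The log2 difference was -0.55 (95% interval -0.94 to -0.16, unadjusted P = 0.0112, adjusted p = 0.515 by limma), and it ranged from -0.72 to -0.34 over the alternatives. It no longer passed at unadjusted P after median centring, without Siglec-XII samples 3 and 4 or without control samples 2 and 4. Nod1 had 5.72, 7.28, 6.45 and 5.98 TPM in controls and 7.00, 5.57, 4.48 and 3.06 TPM in Siglec-XII samples, with a log2 difference of -0.33 (-0.79 to 0.14). It was -0.15 without Siglec-XII sample 4 and -0.48 without Siglec-XII sample 1, where it passed at unadjusted P. Nod2 was between 0.289 and 0.595 TPM in controls and between 0.106 and 0.267 TPM in Siglec-XII samples and was too low to be tested. It passed with the lower level at unadjusted P when no filter was set.

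The inflammasome sensors showed no difference that exceeded the spread between samples. Of the 7 tested, 4 differences were above 0 and 3 below (median 0.02), while all 7 were above 0 after median centring (median 0.23) and after quantile normalization (median 0.21). The median of all tested genes was -0.15 as deposited, 0.06 after centring and 0.02 after quantile normalization. None of the 7 passed at unadjusted P in the values as deposited, and the lowest of the 8 values lay in control sample 1 in all 7. The share of all tested genes that were lowest in that sample was not counted. Nlrp6 had 35.8, 57.4, 73.0 and 58.7 TPM in controls and 59.5, 66.2, 50.4 and 44.4 TPM in Siglec-XII samples. Aim2 had 35.0, 61.3, 54.8 and 51.7 TPM in controls and 59.7, 51.0, 51.8 and 44.5 TPM in Siglec-XII samples. The 4 Siglec-XII values lay inside the control range for both genes, and their log2 differences were 0.00 for Nlrp6 (-0.48 to 0.48) and 0.05 for Aim2 (-0.34 to 0.44). Without control sample 1 they were -0.20 and -0.11.

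The largest sensor difference was that of Naip2, 0.22 (-0.24 to 0.67), from 17.7, 31.3, 34.5 and 31.9 TPM in controls and 34.9, 37.4, 29.6 and 29.4 TPM in Siglec-XII samples. It was 0.01 without control sample 1 and 0.43 after median centring, where Naip2 and Naip1 passed at unadjusted P. The Naip genes are related copies on chromosome 13 that share part of their sequence, so that reads could be divided among them: 44.3% of the 31-base windows of Naip1, 32.8% of those of Naip2 and 53.1% of those of Naip5 also occur in another gene. The levels of single Naip genes are uncertain for this reason. Nlrc4, the partner of the NAIP proteins, differed by 0.02, and Nlrp1b, Naip1 and Naip5 lay between -0.06 and 0.15. Nlrp3, a sensor best known from macrophages, was at most 0.415 TPM in any sample.

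Downstream of the sensors lies Gsdmd, on chromosome 15 from 75862327 to 75867408. In the values as deposited, it was the single gene of the set that was higher in Siglec-XII samples at unadjusted P. It had 92.1, 118, 124 and 111 TPM in control samples 1 to 4 and 136, 136, 127 and 134 TPM in Siglec-XII samples 1 to 4. Every Siglec-XII sample lay above every control sample. The log2 difference was 0.26 (95% interval 0.03 to 0.50, unadjusted P = 0.0299, adjusted p = 0.515 by limma), a fold of 1.20 on this scale. Control sample 1 was the lowest, and without it the difference was 0.18. It passed at unadjusted P in 10 of 17 alternatives and was above 0 in all 17. The call was lost without control sample 1 or 4 or Siglec-XII sample 1 or 2, and with the replicate block. It was also lost without Siglec-XII samples 3 and 4 and without control samples 2 and 4. Gsdmd shares no 31-base window with another annotated gene. Pycard had 345, 308, 300 and 309 TPM in controls and 355, 310, 373 and 339 TPM in Siglec-XII samples, which overlapped, with a log2 difference of 0.12 (-0.07 to 0.32). Casp1 differed by -0.01 (-0.22 to 0.20) and Casp4, the mouse sensor of cytosolic lipopolysaccharide, by 0.08 (-0.39 to 0.55).

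All 5 NF-κB subunit genes had a difference below 0 (median -0.36), although that of Relb rounded to 0.00, and 2 of the 5 passed at unadjusted P. Among all tested genes, 78.1% had a difference below 0 (median -0.15) and 7.67% passed with the lower level. After median centring and after quantile normalization 3 of the 5 were below 0, and without Siglec-XII samples 3 and 4 it was 2 of the 5 (median 0.01). Nfkb1, which encodes p105 and its product p50, lies on chromosome 3 from 135584655 to 135691547. It had 28.3, 34.2, 28.4 and 33.7 TPM in control samples 1 to 4 and 27.0, 28.6, 18.0 and 14.7 TPM in Siglec-XII samples 1 to 4. Siglec-XII samples 3 and 4 were the lowest, and Siglec-XII sample 2 lay within the control range. The log2 difference was -0.52 (95% interval -0.99 to -0.06, unadjusted P = 0.0318, adjusted p = 0.515 by limma), and -0.15 without Siglec-XII samples 3 and 4 under the same model. Nfkb1 passed at unadjusted P in 10 of 17 alternatives, not without control sample 2, control sample 4, Siglec-XII sample 3 or Siglec-XII sample 4. The call was also lost with array weights, without Siglec-XII samples 3 and 4 together and without control samples 2 and 4 together.

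Rel, the gene of c-Rel, a subunit known mainly from lymphocytes, lies on chromosome 11 from 23736847 to 23770970 and was near the lower limit of the test. It had 1.47, 1.49, 1.40 and 1.54 TPM in controls and 1.22, 1.19, 0.657 and 0.505 TPM in Siglec-XII samples. The groups did not overlap, and the log2 difference was -0.41 (95% interval -0.76 to -0.05, unadjusted P = 0.0298, adjusted p = 0.515 by limma). At this level it passed in 5 of 16 alternatives, and with 1 sample left out it passed only without control sample 3, Siglec-XII sample 1 or Siglec-XII sample 2. Relb had 35.7, 47.7, 42.2 and 44.4 TPM in controls and 41.6, 46.2, 39.3 and 41.9 TPM in Siglec-XII samples, which overlapped. Rela, the gene of the main transactivating subunit p65, ranged from 20.4 to 27.4 TPM in controls and from 12.8 to 25.3 TPM in Siglec-XII samples, with a log2 difference of -0.36 (-0.84 to 0.11). Rela passed at unadjusted P without Siglec-XII sample 1, where 18% of all tested genes did. Nfkb2 differed by -0.08. The lowest value was in Siglec-XII sample 4 in Nfkb1, Nfkb2, Rel and Rela, and in control sample 1 in Relb.

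**Figure D4:**
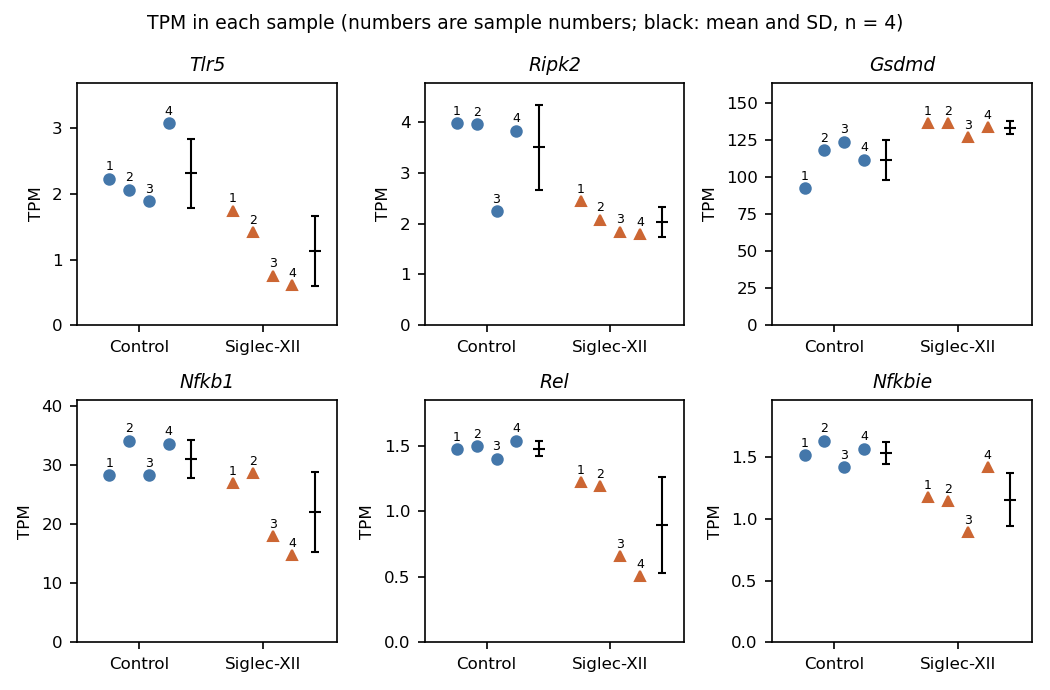
TPM in each sample of the 5 genes at unadjusted P of 0.05 or less and of Nfkbie, with a vertical axis from 0 in each panel. Circles are control and triangles Siglec-XII samples, numbered as in the labels, and black bars are the mean and SD (n = 4); all Siglec-XII values lie above the controls for Gsdmd and below them for Tlr5, Rel and Nfkbie, the last by a margin that the panel barely resolves.

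IκB proteins hold NF-κB in the cytoplasm. Nfkbie, on chromosome 17 from 45555703 to 45563169, had 1.52, 1.63, 1.42 and 1.57 TPM in controls and 1.17, 1.14, 0.895 and 1.42 TPM in Siglec-XII samples. The groups did not overlap, but control sample 3 and Siglec-XII sample 4 were almost equal. The log2 difference was -0.24 (95% interval -0.52 to 0.04, unadjusted P = 0.0878, adjusted p = 0.515 by limma) and ranged from -0.39 to -0.02 over the alternatives. Nfkbie passed at unadjusted P with array weights, where 14.1% of all tested genes did. Nfkbia, whose promoter is shown above, had 81.9, 75.8, 65.4 and 112 TPM in controls and 75.7, 78.3, 68.9 and 76.4 TPM in Siglec-XII samples. All Siglec-XII values of Nfkbia lay inside the control range, with a log2 difference of -0.14 (-0.48 to 0.21).

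The largest difference among these genes was that of Nfkbiz, which encodes the nuclear protein IκBζ and is itself an NF-κB target. It had 10.6, 16.0, 21.5 and 20.2 TPM in controls and 16.6, 13.2, 7.27 and 7.61 TPM in Siglec-XII samples. The groups overlapped through control sample 1 and Siglec-XII sample 1, and the log2 difference was -0.60 (-1.27 to 0.06). Nfkbiz passed at unadjusted P without control sample 1, without Siglec-XII sample 1 and with array weights. Nfkbib had 32.0, 35.8, 34.5 and 40.3 TPM in controls and 37.4, 39.0, 36.0 and 34.2 TPM in Siglec-XII samples, with a log2 difference of 0.04. After median centring Nfkbib passed at unadjusted P with the higher level in Siglec-XII samples. Of its 31-base windows, 13.4% also occur in the neighbouring gene Ccer2.

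The IKK subunit genes and the feedback enzyme gene Tnfaip3, which encodes A20, did not pass at unadjusted P. Chuk, which encodes IKKα, had 22.9, 27.2, 25.8 and 23.1 TPM in controls and 29.4, 25.5, 20.3 and 17.8 TPM in Siglec-XII samples. Ikbkg, which encodes the scaffold NEMO, had 16.3, 19.1, 19.1 and 17.8 TPM in controls and 19.1, 20.4, 16.0 and 19.1 TPM in Siglec-XII samples. Their log2 differences were -0.11 (-0.47 to 0.25) and 0.04 (-0.21 to 0.29). Ikbkb, which encodes IKKβ, had 11.8, 14.5, 14.3 and 13.5 TPM in controls and 15.2, 13.7, 10.5 and 8.68 TPM in Siglec-XII samples, a log2 difference of -0.18 (-0.58 to 0.21). Tnfaip3 had 17.4, 23.8, 18.9 and 26.5 TPM in controls and 15.6, 19.5, 14.1 and 20.5 TPM in Siglec-XII samples. These overlapped, with a log2 difference of -0.29 (-0.68 to 0.09).

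Other genes of the same pathways were read as a group of 57, of which 45 were tested. In limma, 2 of them passed at unadjusted P (4.44%, against 8.87% of all tested genes), and none at an adjusted p of 0.05. Both had the lower level in Siglec-XII samples, a direction in which 7.67% of all tested genes passed. Of the 45 differences, 5 were positive and 40 negative, with a median of -0.16. Among all tested genes 21.9% were positive, and the median was -0.15. Centring on the sample medians made 29 positive and 16 negative, and quantile normalization 26 and 19. The median of all tested genes was then 0.06 and 0.02. Nlrp10, an NLR gene, had 8.43, 5.70, 2.98 and 4.25 TPM in controls and 2.37, 3.21, 2.05 and 1.80 TPM in Siglec-XII samples, a log2 difference of -0.86 (-1.46 to -0.27, unadjusted P = 0.00942). Ddx58, which encodes the RNA sensor RIG-I, had 3.38, 4.58, 3.54 and 2.88 TPM in controls and 3.03, 2.86, 2.08 and 1.53 TPM in Siglec-XII samples, a log2 difference of -0.46 (-0.88 to -0.03, unadjusted P = 0.0386). In both genes the groups overlapped. Ddx58 passed in 5 of 16 alternatives and Nlrp10 in 15 of 16. Il18, a substrate of caspase-1, was abundant, with 133 to 271 TPM in controls and 214 to 270 TPM in Siglec-XII samples.

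NF-κB target genes were mostly low, and 6 of 14 were tested. None passed in limma, at an adjusted p or at unadjusted P. Some passed with the lower level at unadjusted P in an alternative, given here with the share of all genes that passed in either direction. Cxcl5 and Lcn2 passed without control sample 1 (8.45%), Icam1 without Siglec-XII sample 4 (4.28%) and Bcl2l1 without Siglec-XII sample 1 (18%). With array weights Cxcl5, Lcn2 and Icam1 passed (14.1%). Nos2, too low for the test, passed when no filter was set (6.52%). For Cxcl5 and Lcn2 the values differed more among the control samples than between the groups. Cxcl5, an epithelial neutrophil chemokine, had 1.36, 54.6, 6.54 and 31.5 TPM in control samples 1 to 4 and 2.71 to 4.80 TPM in Siglec-XII samples. Lcn2, an antimicrobial siderophore-binding protein gene, had 1.13, 54.8, 2.47 and 7.43 TPM in controls and 1.12 to 2.25 TPM in Siglec-XII samples. Control samples 2 and 4 were the highest for both. The log2 differences were -1.54 (-3.48 to 0.39) and -1.56 (-3.51 to 0.39).

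Control sample 2 was also the highest for 3 genes of these lists that were too low to be tested, and control sample 4 came next for 2 of them. They were chosen after their values had been seen. Il1b, the IL-1β gene, had 0.395, 7.51, 0.217 and 2.29 TPM in controls and at most 0.298 TPM in Siglec-XII samples. Cxcl2, a neutrophil chemokine gene, had 0.444, 3.37, 0 and 1.68 TPM in controls and at most 0.158 TPM in Siglec-XII samples. Nlrp3 had 0.0217, 0.415, 0.0187 and 0.0724 TPM in controls and at most 0.0801 TPM in Siglec-XII samples. Control samples 2 and 4 were the highest for 2 of the 6 neutrophil markers as well, Csf3r and S100a8. The neutrophil marker Ly6g went the other way, with its highest value in Siglec-XII sample 3 or 4 and a log2 difference of 0.02. Csf3r had 0.0137, 1.52, 0.0355 and 0.806 TPM in controls and at most 0.136 TPM in Siglec-XII samples, and S100a8 had 9.61, 22.4, 11.9 and 40.9 TPM in controls and 0.957 to 4.03 TPM in Siglec-XII samples. Whether these markers have a part in the levels of Il1b, Cxcl2 and Nlrp3 was not tested.

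**Figure D5:**
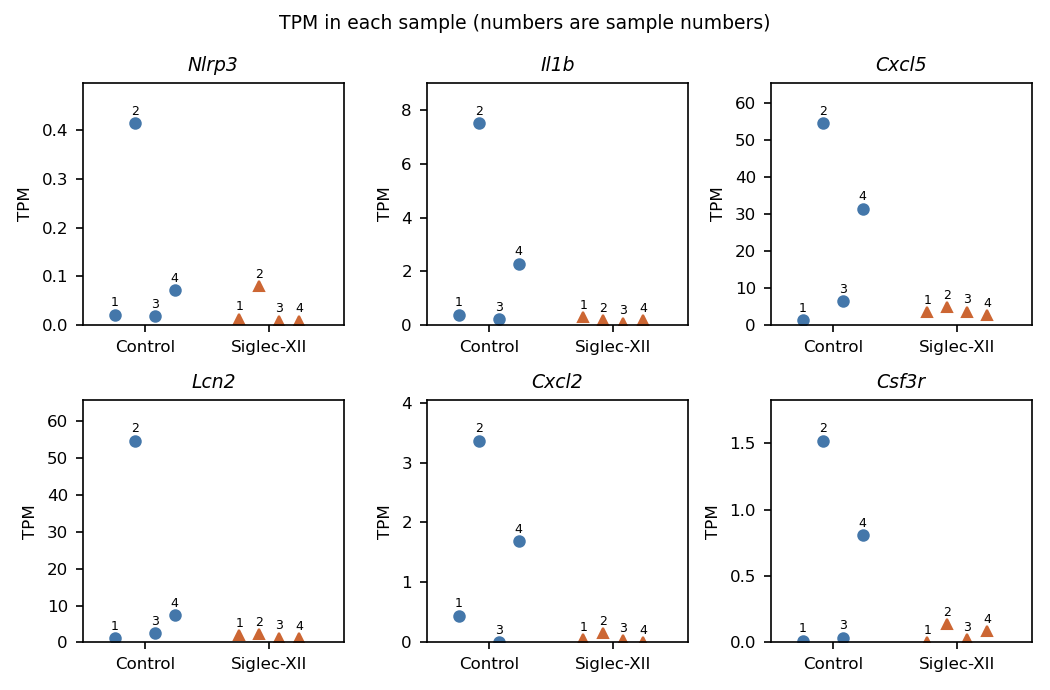
TPM in each sample of Nlrp3, Il1b, Cxcl5, Lcn2, Cxcl2 and the neutrophil marker Csf3r, with a vertical axis from 0 in each panel. Circles are control and triangles Siglec-XII samples, numbered as in the labels; control sample 2 is the highest point in all 6 panels, and control sample 4 comes next in all but Nlrp3.

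No marker of another cell type passed an adjusted p of 0.05 in limma, but some had the lower level in Siglec-XII samples at unadjusted P, which 7.67% of all tested genes did. Of 5 leukocyte markers, 3 were tested and 2 passed with the lower level at unadjusted P, and their summed TPM was 8.58 to 27.3 in controls and 6.56 to 9.73 in Siglec-XII samples. Of 9 macrophage markers, 4 were tested and 2 passed with the lower level, and the sums were 11.5 to 28.5 and 7.55 to 12.4 TPM. Control sample 1 had the highest leukocyte (27.3 TPM), macrophage (28.5 TPM) and B cell (17.1 TPM) sums of the 8 samples. Control sample 4 came next, with 14.5, 17.3 and 5.70 TPM. The neutrophil sum went the other way, with control sample 1 the lowest of the controls, and the dendritic cell sum was highest in control sample 2. Ptprc, which defines leukocytes, was at most 0.983 TPM in controls and 0.499 TPM in Siglec-XII samples. All 6 smooth muscle markers were tested, 3 passed with the lower level, and the sums were 623 to 1003 and 303 to 651 TPM. None of the 8 epithelial markers passed. The 5 T cell markers were under 1 TPM in every sample. Of the 6 neutrophil markers, 3 were tested. S100a8 and S100a9 passed with the lower level, Ly6g did not (log2 difference 0.02), and Mpo was near 0. The neutrophil sums overlapped, with 265 to 460 TPM in controls and 232 to 365 TPM in Siglec-XII samples. These sums did not follow S100a8 and S100a9, whose log2 differences lay between -2.94 and -2.61. Their overlap therefore does not show that the neutrophil content was alike. Of 4 endothelial markers, the 1 tested passed with the lower level (sums of 2.18 to 3.52 and 1.31 to 1.57 TPM). No tested B cell, fibroblast, enteric nerve and glia or adipocyte marker passed, and no dendritic cell marker could be tested. The part of these markers in the lower levels of Tlr5, Ripk2, Nfkb1, Rel and Nfkbie was not tested. In bulk tissue, fewer cells of a type and less RNA per cell cannot be told apart.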

How the data were processed

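RNA-Seq of mouse distal colon, 4 control and 4 Siglec-XII samples grouped by their labels, was analysed. The authors deposited log2(TPM + 1) values for each gene in each sample, unscaled between samples. The submitters' processing notes name kallisto 0.45.0 and GRCm38, while the Methods name another kallisto release and a human reference, and the gene identifiers are those of mouse (98.3% in GENCODE M21). The labels name a stranded total RNA kit and the Methods a stranded mRNA kit. The design text speaks of 3 mice per condition and the Methods of 3 technical replicate libraries per sample. Each labelled sample was counted as 1 replicate. As nothing ties samples to single mice, p-values measure the spread between these samples, which may be technical.

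For symbols repeated in 718 further rows, look-up took the row of highest mean. The 13164 genes that reached 1 TPM in 4 or more samples were fitted in R 4.3.3 by lmFit and eBayes (with trend) of limma 3.58.1 and adjusted by Benjamini-Hochberg over all of them. The fit was tested on simulated data. Python 3.11.15, scipy 1.17.1 and matplotlib 3.10.9 were used for counts and figures. Windows of 31 bases shared between genes were counted over GENCODE M21 transcripts. TPM gives no depth, so the number of samples limits the precision.

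The 50 genes and the lists of other pathway genes, NF-κB targets and markers were chosen with earlier results of these data known. Genes described sample by sample were those at unadjusted P of 0.05 or less, the 2 with the highest control level and the 1 with the largest difference in each role group, those with no overlap between groups, and Nfkbie. Other pathway and target genes were named at unadjusted P of 0.05 or less. The remaining names, among them Il18, Cxcl5, Lcn2, Il1b, Cxcl2, Csf3r and S100a8, were chosen after their values had been seen. The alternatives were a filter at TPM 5 or none, a pseudocount of 0.1, quantile normalization, median centring, array weights, the sample number as a block, and each sample left out in turn.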

Additional observations from a re-analysis of the deposited data

Results flagged for a closer look

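Within groups of 4 samples, a value far from the other 3 was looked for by the ratio of its gap to the range of the group (Dixon's 95% criterion). Of 80 groups, 6 held such a value, where about 4 (5%) would be flagged by chance. Control sample 1 was low for Tlr2 (gap ratio 0.928, 3.66 TPM), Naip2 (0.851, 17.7 TPM) and Naip5 (0.877, 5.18 TPM). Control sample 3 was low for Ripk2 (0.93, 2.24 TPM). Siglec-XII sample 3 was low for Casp1 (0.92, 94.97 TPM), and Siglec-XII sample 4 was high for Irak2 (0.908, 25.7 TPM). The cause was not tested.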

How the results depend on the processing

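No gene of the set passed an adjusted p of 0.05 in limma under any alternative, and 5 passed at unadjusted P as reported. That count was 2 with a filter at TPM 5, 9 after median centring, 3 with the replicate block and from 2 to 10 with 1 sample left out. It was 0 without Siglec-XII samples 3 and 4 and 0 without control samples 2 and 4, alternatives chosen after seeing the data. The numbers of the samples gave no sign of pairing, since deviations of same-numbered samples correlated at -0.16, -0.20, 0.10 and 0.00. No sample correlated best with its own number. These values cannot exclude a pairing by litter, which the labels do not give. The median difference of -0.07 turned to 0.10 after quantile normalization, 0.14 after median centring, 0.069 without Siglec-XII samples 3 and 4 and 0.021 without control samples 2 and 4, and ranged from -0.15 to -0.02 with 1 sample left out. The median of all tested genes, -0.15 as reported, was 0.017 after quantile normalization and 0.060 after median centring. It was 0.0031 without Siglec-XII samples 3 and 4 and -0.095 without control samples 2 and 4. Of the 27 tested genes named by the rule, 16 kept the direction of their difference throughout, and 11 changed it in at least 1 alternative. After quantile normalization the difference was 0.071 in Tlr3, 0.11 in Tollip, 0.11 in Nlrp6, 0.11 in Relb, 0.028 in Ikbkb and 0.063 in Chuk. After median centring it was 0.060 in Tlr3, 0.16 in Tollip, 0.21 in Nlrp6, 0.21 in Relb, 0.077 in Nfkbia, 0.029 in Ikbkb and 0.10 in Chuk. With array weights it was 0.00057 in Tlr3, 0.025 in Tollip, 0.095 in Nlrp6, -0.049 in Aim2, 0.030 in Relb and 0.030 in Chuk. Without Siglec-XII samples 3 and 4 it was 0.26 in Tlr3, 0.15 in Tollip, 0.20 in Nlrp6, 0.050 in Relb, 0.091 in Ikbkb and 0.14 in Chuk. Without control samples 2 and 4 it was 0.013 in Tlr3, 0.057 in Tollip, 0.088 in Nlrp6, 0.12 in Relb and 0.029 in Nfkbia. With 1 sample left out, the difference ranged from -0.023 to 0.21 in Tlr1, -0.37 to 0.055 in Tlr3, -0.14 to 0.033 in Tollip, -0.20 to 0.14 in Nlrp6, -0.11 to 0.15 in Aim2, -0.082 to 0.054 in Relb, -0.24 to 0.013 in Nfkbia, -0.0055 to 0.10 in Nfkbib, -0.0072 to 0.11 in Ikbkg and -0.22 to 0.0046 in Chuk. The cause of these changes was not tested.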
